A study of Mus musculus with 28 samples.

Results

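Recognition of lipopolysaccharide (LPS) was followed through 10 genes: the co-receptors and receptor relatives Cd14, Ly96 and Cd180, the adaptors Myd88, Ticam1, Ticam2 and Tirap, and the kinases Irak1, Irak3 and Irak4. They were taken by symbol, 1 line each, from the 40021 genes of the deposited expression table. All 10 passed the filter on low values, a level of at least 1 RPKM (a read count divided by transcript length and by sequencing depth) in at least 5 samples, which left 13164 genes for testing.

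CD14 binds LPS and hands it to MD-2, the product of Ly96, which sits in the ectodomain of Toll-like receptor 4 (TLR4) and carries the ligand during dimerisation. At the plasma membrane TIRAP bridges the receptor to MyD88, which assembles IRAK4 and IRAK1 and leads to NF-kappa B. From endosomes TRAM (Ticam2) bridges it to TRIF (Ticam1), which leads to interferon regulatory factors and interferon beta. IRAK-M (Irak3) is a family member held to restrain MyD88 signalling, and CD180 is a TLR4 relative that pairs with MD-1 (Ly86). Microglia are the resident macrophages of the retina and carry this machinery at rest.

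mRNA was sequenced from microglia sorted from single retinas of male Cx3cr1CreER:R26-tdTomato heterozygotes on a C57BL/6 background, all given tamoxifen eye drops as juveniles and studied as young adults. There were 10 naive retinas without injection and 18 with endotoxin-induced uveitis (EIU), a self-resolving eye inflammation that follows LPS injected into the vitreous, of which 6 were taken 4 h after injection, 5 after 18 h and 7 after 2 weeks. Cre is driven by Cx3cr1, so the sort for bright tdTomato and exclusion of the dead-cell dye DRAQ7 rests on recombination under that promoter. The paper reports that part of the microglia were also tagged without tamoxifen. No vehicle-injected group was analysed here, so LPS and the injection itself cannot be told apart. The retinas came from 2 experiments (17 and 11 samples), 14 were left and 14 right eyes, and the labels do not tie retinas to animals: the p-values measure the spread between these retinas, some of which may share a mouse.

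Alignments per sample ran from 7510000 to 19700000, and 6552 to 11825 genes reached 1 RPKM. In 7 retinas, 4 naive and 1 at each time after LPS, fewer than 9000 genes did. All 7 belonged to experiment 1, so a comparison of the 2 experiments also compares retinas that differ in genes detected. Low genes were often near 0 in these 7 retinas. Ticam1, Ticam2 and Irak4 were under 1 RPKM in 6 of them, against 13, 2 and 3 of the other 21. Irak3 was under 1 RPKM in 5 of the 7 (median 0.0263), against 2 of the 21 (median 4.15). For Tirap the counts were 5 against 10, and for Myd88 3 against 0. The part of these 7 retinas in the results was not tested, and results with and without them are given below. The summed level of 10 microglial markers had a median of 10600 RPKM in the naive group and 4690, 3100 and 10500 in the EIU groups in order of time, and rod photoreceptor genes were present in every group (median sums of 1560 to 2980 RPKM). Neutrophil markers summed to at most 0.264 RPKM in naive and 4 h retinas. At 18 h they reached 12.7 and 17.1 in 2 of the 5 retinas. The 8 monocyte markers summed to 0.149 to 29.1 RPKM in naive retinas (median 7.56). Their median was 6.7 at 4 h and 8.53 at 18 h, when replicate 5 alone lay above every naive retina. Of them Ly6c2, Ccr2 and Chil3 were under 1 RPKM in every naive and 4 h retina, but not in every retina at 18 h. The 3 perivascular macrophage markers had a median sum of 27.1 RPKM in naive retinas and 9.31, 1.67 and 15.6 in the EIU groups. The 8 lymphocyte markers summed to 20.2 to 81.5 RPKM in naive retinas (median 33.6), 6.62 to 18.3 at 4 h and 43.5 to 119 at 18 h (median 61.2), with Cd3e, Cd79a and Ms4a1 under 1 RPKM in every retina at 18 h. Of that list Nkg7, a gene of natural killer and cytotoxic T cells, was listed at 0 in all 10 naive retinas and held 5.77 to 86.4 RPKM in the 5 retinas at 18 h (limma adjusted p = 2e-10). In such bulk samples fewer expressing cells and less RNA per cell cannot be told apart.

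Changes were called with limma on log2(RPKM + 1) at a Benjamini-Hochberg adjusted p of at most 0.05 over all genes tested and at least a 2-fold change. The members were chosen with earlier results of these data known, so counts of them are a description. At 4 h, 2 of the 10 members were called higher (Cd14 and Irak3), beside 3.68% of all genes tested, and 1 was called lower (Ly96), beside 4.39%. At 18 h, 1 was called higher (Irak3), beside 2.84%, and none lower, beside 1.85%, where limma gave 0 members lower at an unadjusted p under 0.05. At 2 weeks limma called none of the 10, with 0 at an unadjusted p under 0.05 in either direction. Over all genes 1 was called higher at 2 weeks (0.0076%) and 0 lower. The members' median difference from naive on the log2 scale was 0.27 at 4 h, 0.24 at 18 h and, by the last time point, 0.24, and that of all genes was -0.11, -0.08 and 0.07. Scaling every retina to equal summed RPKM lowered the median of all genes to -0.28 at 4 h and -0.26 at 18 h and moved the split of calls over all genes from 485 higher and 578 lower to 410 and 1002 at 4 h, and from 374 and 244 to 226 and 471 at 18 h. The calls of Cd14, Irak3 and Ly96 against naive held under that scaling.

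**Figure D1:**
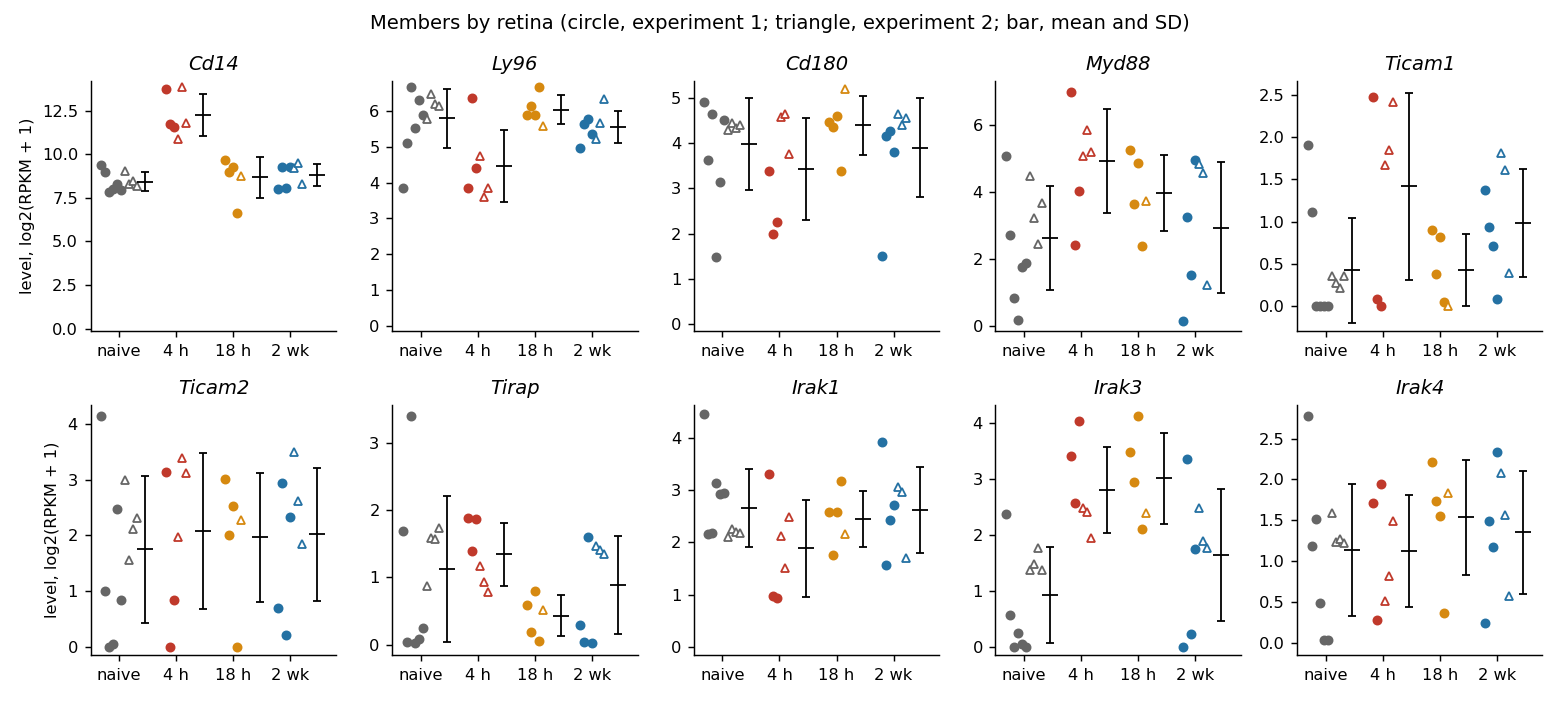
Level of each member in each of the 28 retinas, as log2(RPKM + 1), by group (10 naive, 6 at 4 h, 5 at 18 h, 7 at 2 weeks). Filled circles are experiment 1, open triangles experiment 2, and the bar beside each group is its mean and SD. All 6 retinas at 4 h lie above all 10 naive retinas for Cd14, and for no other member.

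Sequences before the start sites were read from RefSeq (GRCm38.p6) for 7 of the 10 members, as the 250 bases upstream of each start, and searched on both strands for kappa B (GGGANNTTC), interferon-stimulated response element core (GAAANNGAA), AP-1 (TGACTCA) and PU.1 (GAGGAAGT) letters. Cd14, Ly96 and Ticam2 were not searched. The 3 members with a match are shown because they include Irak3, the member called at both acute times, and Myd88, the adaptor that just missed its call. Capitals mark the matched letters, read 5′ to 3′ on the gene's strand. For Irak3 the window was chr10:120202131-120202380 (minus strand), for Myd88 chr9:119340042-119340268 (minus strand, without 23 bases that an annotated exon covers) and for Cd180 chr13:102693308-102693557 (plus strand).
Irak3: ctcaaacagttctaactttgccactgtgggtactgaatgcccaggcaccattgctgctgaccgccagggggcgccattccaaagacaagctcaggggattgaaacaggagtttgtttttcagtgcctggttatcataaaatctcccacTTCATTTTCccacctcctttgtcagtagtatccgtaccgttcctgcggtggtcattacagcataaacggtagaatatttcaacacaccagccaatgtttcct
Myd88: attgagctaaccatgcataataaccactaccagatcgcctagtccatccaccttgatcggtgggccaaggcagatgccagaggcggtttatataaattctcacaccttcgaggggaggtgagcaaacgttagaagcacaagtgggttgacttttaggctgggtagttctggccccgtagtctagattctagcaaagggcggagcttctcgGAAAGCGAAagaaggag
Cd180: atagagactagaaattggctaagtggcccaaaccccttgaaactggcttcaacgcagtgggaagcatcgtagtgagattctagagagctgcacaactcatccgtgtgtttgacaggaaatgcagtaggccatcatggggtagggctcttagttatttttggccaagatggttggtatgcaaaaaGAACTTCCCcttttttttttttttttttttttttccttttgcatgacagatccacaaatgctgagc

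The Irak3 window held 1 interferon-stimulated response element core on the opposite strand, 102 bases before the start, and its other listed start held no match. The Myd88 window held 1 on its own strand, 40 bases before the start used. That window lies inside the annotated Myd88 gene (chr9:119335934-119341411, minus strand, GRCm38), downstream of its outermost start. The letters of the interferon-stimulated response element core occur in 7.13% of 32851 upstream windows. The Cd180 window held 1 kappa B match on the opposite strand, 66 bases before the start, letters found in 3.23% of windows. AP-1 letters (4.46%) and PU.1 letters (2.44%) matched none of the 7 members searched. A match describes letters and not binding. Among these genes, exons of Irak3 share 192 of 3676 bases with Tmbim4 and those of Myd88 share 290 of 2576 with Acaa1a, both on the opposite strand, and since strand is not stated for the counting, reads there cannot be assigned with certainty.

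Cd14 was the most abundant member and the one that moved furthest. Naive retinas held 223 to 661 RPKM (median 310, mean 367 ± 145 SD, n = 10). At 4 h the 6 retinas held 1874, 3062, 3426, 3490, 13498 and 14678 RPKM (mean 6671 ± 5786 SD), so each exceeded every naive retina, and 2 of them, 1 from each experiment, stood well above the other 4. Every 4 h value lay above every naive value for Cd14 alone among the members, beside 1.65% of all genes tested.

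At 18 h Cd14 held 820, 514, 621, 100 and 431 RPKM (497 ± 266 SD, n = 5). Of these 5 retinas 1 lay above every naive retina. Another 1, the 100 RPKM of replicate 4 with 6969 genes detected, lay below every naive retina. At 2 weeks Cd14 ran from 259 to 713 RPKM (median 601, 485 ± 194 SD, n = 7). The log2 difference from naive was 3.82 at 4 h (SE 0.42, a 14.1-fold change on the RPKM + 1 scale, limma adjusted p = 6.4e-08). It was 0.24 at 18 h (95% interval -0.67 to 1.15, limma adjusted p = 0.84) and 0.38 at 2 weeks (-0.44 to 1.20, adjusted p = 1.0). The rise at 4 h was 3.95 in experiment 1 alone (limma adjusted p = 0.00045) and 3.67 in experiment 2 alone (adjusted p = 0.0018), and 3.64 in the retinas with at least 9000 genes (adjusted p = 3.1e-06). The difference between the experiments was -0.28 (95% interval -2.12 to 1.57, limma adjusted p = 1.0).

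Between the acute times Cd14 fell by 3.58 on the log2 scale (limma adjusted p = 8.8e-06), with 5 of 5 retinas at 18 h below all 6 at 4 h. From 4 h to 2 weeks it fell by 3.44 (limma adjusted p = 2.6e-06), with 7 of 7 below. The order of its levels was thus 4 h above 2 weeks, 18 h and naive, and those 3 were not separated by the test.

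Ly96, the MD-2 partner to which CD14 passes LPS, went the other way at 4 h. Its gene spans chr1:16688051-16709611 on the plus strand (GRCm38). Naive levels ran from 13.5 to 101 RPKM (median 64.1, 61.2 ± 26.1 SD, n = 10). At 4 h 5 of the 6 retinas held 11.1 to 25.5 RPKM and the sixth held 80.4, the retina of that group with the fewest genes detected (27.3 ± 26.5 SD). Of the 6, 2 lay below every naive retina, so the groups overlapped.

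The difference at 4 h was -1.33 on the log2 scale (SE 0.39, 2.52-fold lower, limma adjusted p = 0.024). It was -2.09 in experiment 2 alone (limma adjusted p = 0.0018) and -0.69 in experiment 1 alone (adjusted p = 0.70), although the difference between the experiments itself was not called (-1.40, unadjusted p = 0.080, limma adjusted p = 1.0). Without the 7 retinas of few genes it was -1.50 (limma adjusted p = 0.0052). The call was lost when 4 h replicate 1, 5 or 6 was left out (limma adjusted p = 0.075, 0.091 and 0.069), when only the 4 h and naive groups were fitted (0.078), with no filter on low values (0.056) and with a fit to untransformed RPKM (0.096).

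Later values of Ly96 were 58.5, 70.0, 57.6, 100 and 46.8 RPKM at 18 h (66.6 ± 20.5 SD) and 30.4 to 78.8 RPKM at 2 weeks (median 48.2, 47.9 ± 15.9 SD). These overlapped the naive range fully. From 4 h to 18 h the level rose by 1.57 on the log2 scale (SE 0.45, limma adjusted p = 0.034), a call lost when any 1 of 8 retinas was left out, with adjusted p from 0.056 to 0.097 (4 h replicates 1, 3, 5 and 6, 18 h replicates 1 to 4). It was also lost with no filter (0.072), under quantile normalisation (1.25, 0.13), with a fit to untransformed RPKM (0.099) and within experiment 1 or 2 alone (1.27 and 1.53, limma adjusted p = 0.54 and 0.11).

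CD180 regulates TLR4 responses from the cell surface, and its gene was not called at any time. Naive retinas held 1.82 to 29.2 RPKM (median 19.6, 17.5 ± 8.15 SD). At 4 h the 3 retinas of experiment 1 held 3.00, 3.79 and 9.38 RPKM and the 3 of experiment 2 held 12.6, 22.8 and 23.9. With 3 retinas against 3 these values did not overlap, and the share of all genes that separate so was not counted. The interaction test gave 1.13 (limma adjusted p = 1.0).

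Over all retinas Cd180 differed from naive by -0.55 at 4 h (95% interval -1.57 to 0.48). The 18 h difference was 0.42 (-0.67 to 1.51) and the 2-week difference -0.08 (-1.06 to 0.90), none called by limma (adjusted p = 0.59, 0.75 and 1.0). The 18 h values were 21, 19.6, 23.3, 9.44 and 35.4 RPKM (21.8 ± 9.30 SD), and those at 2 weeks ran from 1.86 to 23.9 (median 18.2, 16.6 ± 7.45 SD). All these ranges overlapped.

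The ratio of the LPS-binding partners was compared within each retina, where the sample scaling cancels apart from the pseudocount. The log2 ratio of Cd14 to Ly96, each with 1 RPKM added, was 2.64 ± 1.26 (SD, n = 10) in naive retinas and 7.79 ± 1.96 (n = 6) at 4 h. The difference of 5.15 had p = 0.0005 by an exact two-sided permutation test (adjusted p = 0.002 over 9 ratio tests), where the smallest p the 4 h design allows is 0.00025. At 4 h 5 of the 6 retinas lay above all naive retinas. At 18 h the difference was 0.003 (exact permutation p = 0.99, adjusted 0.99) and at 2 weeks 0.62 (exact permutation p = 0.28, adjusted 0.36). The shift was thus seen at 4 h and in neither later group.

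**Figure D2:**
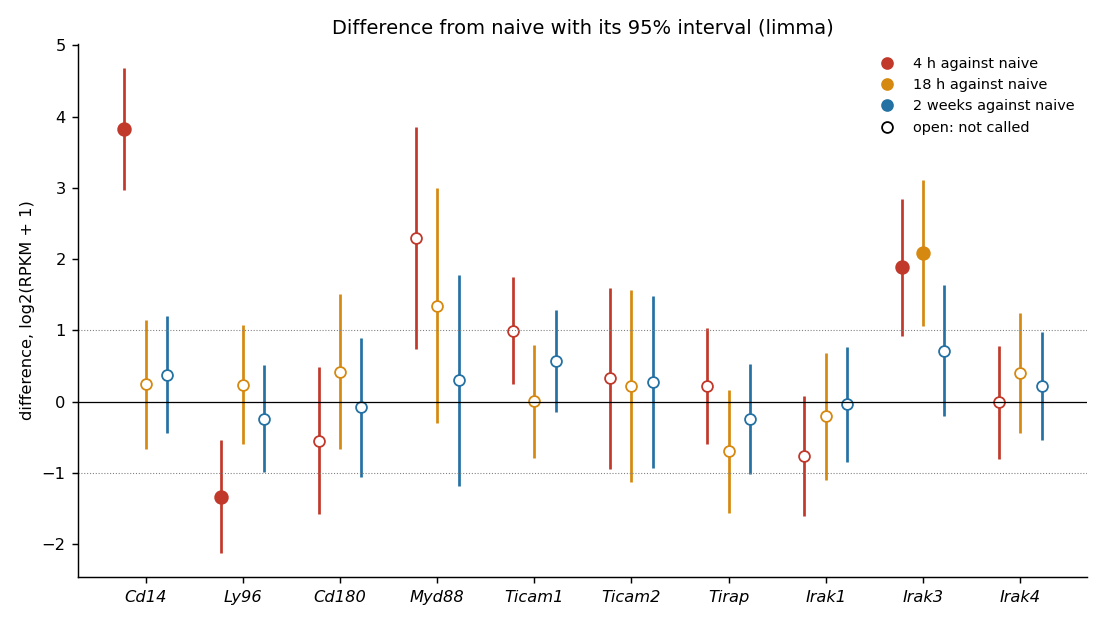
Difference of each member from naive at each time after LPS (4 h, 18 h, 2 weeks), on the log2(RPKM + 1) scale, with its 95% interval from limma. Filled points were called (adjusted p of at most 0.05 and past the dotted lines at 1 and -1): Cd14, Ly96 and Irak3 at 4 h and Irak3 at 18 h.

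Among the adaptors, Myd88, the hub used by nearly all TLRs, had the highest levels and a wide spread. Naive retinas held 0.131 to 32.8 RPKM (median 5.02, 9.03 ± 10.5 SD, n = 10). At 4 h the values were 4.37, 15.3, 32.4, 35.9, 57.1 and 124 RPKM (44.8 ± 42.7 SD), with 3 of 6 above every naive retina. The lowest, 4.37, came from the 4 h retina with the fewest genes detected.

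The log2 difference at 4 h was 2.29 (SE 0.76, 95% interval 0.74 to 3.85), a 4.90-fold higher level whose adjusted p just missed the threshold (limma, 0.056). It passed without 4 h replicate 2 (2.79, limma adjusted p = 0.020), without naive replicate 1 or 7 (adjusted p = 0.024 and 0.037) and without 2-week replicate 1 (0.037). With all retinas it passed under quantile normalisation (2.32, limma adjusted p = 0.018), with 10 RPKM added (1.33, adjusted p = 0.029) and with a filter of 5 RPKM (adjusted p = 0.047). It did not within experiment 1 or 2 alone (2.39 and 1.92, limma adjusted p = 0.37 and 0.11). At 18 h Myd88 held 37.0, 11.4, 28.2, 4.24 and 12.3 RPKM (18.6 ± 13.5 SD), a difference of 1.34 (-0.30 to 2.99, limma adjusted p = 0.41). At 2 weeks it ran from 0.118 to 29.7 RPKM (median 8.52, 13.1 ± 13.1 SD), a difference of 0.30 (-1.18 to 1.78, limma adjusted p = 1.0). None of these ranges was separate from the naive one.

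Ticam1 encodes TRIF, the adaptor of the interferon arm, and was the least abundant member in naive retinas. It was listed at 0 in 4 of 10 naive retinas and reached 2.74 RPKM in 1 (median 0.182, 0.483 ± 0.866 SD). At 4 h the experiment 1 retinas held 4.58, 0.0579 and 0 RPKM and those of experiment 2 held 2.18, 2.60 and 4.35, against 0.158 to 0.282 in the naive retinas of experiment 2. The 4 h and naive values overlapped in experiment 1 and not in experiment 2, where 3 retinas were set against 4. The share of all genes that separate so was not counted.

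Over all retinas the 4 h difference in Ticam1 was 1.00 on the log2 scale (SE 0.37, 95% interval 0.25 to 1.74, limma adjusted p = 0.094). It was 1.68 in experiment 2 alone (limma adjusted p = 0.0065) and 0.35 in experiment 1 alone (adjusted p = 0.85), and the difference between the experiments was not called (1.33, unadjusted p = 0.075, limma adjusted p = 1.0). It passed the threshold without naive replicate 1 (1.16, limma adjusted p = 0.028), 4 h replicate 2 (1.26, adjusted p = 0.029) or 4 h replicate 3 (1.28, adjusted p = 0.026), and with all retinas under quantile normalisation (1.12, adjusted p = 0.014). At 18 h Ticam1 held 0.867, 0.296, 0.760, 0.0294 and 0 RPKM (0.391 ± 0.405 SD), and at 2 weeks 0.0563 to 2.5 RPKM (median 0.912, 1.15 ± 0.918 SD). Both overlapped the naive range, with differences of 0.01 and 0.57 (limma adjusted p = 1.0 for each).

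The bridging adaptors were not called at any time. Ticam2, the TRAM adaptor that recruits TRIF to endosomal TLR4, ran from 0 to 16.6 RPKM in naive retinas (median 2.64, 3.91 ± 4.98 SD) and from 0 to 9.47 at 4 h (median 5.29, 4.78 ± 4.05 SD). It held 7.07, 3.01, 4.76, 0 and 3.83 RPKM at 18 h (3.73 ± 2.58 SD) and 0.151 to 10.3 at 2 weeks (median 4.05, 4.22 ± 3.56 SD). The 4 groups overlapped throughout, and the differences from naive of 0.33, 0.22 and 0.27 were not called (limma adjusted p = 0.82, 0.91 and 1.0). Its gene shares 838 of its 5792 exon bases with Tmed7 on the same strand, so reads there could have been split between them.

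Tirap, which brings MyD88 to the membrane, lay between 0.0228 and 9.50 RPKM in naive retinas (median 1.40, 1.91 ± 2.84 SD). It was 0.729 to 2.69 RPKM at 4 h (median 1.44, 1.64 ± 0.855 SD). At 18 h it was under 1 RPKM in all 5 retinas, at 0.509, 0.144, 0.734, 0.0355 and 0.431 (0.371 ± 0.282 SD), which put 4 of 5 below every 4 h value but within the naive range.

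At 2 weeks Tirap ran from 0.0174 to 2.02 RPKM (median 1.56, 1.04 ± 0.902 SD). Differences from naive of 0.22 at 4 h, -0.69 at 18 h (95% interval -1.56 to 0.17) and -0.24 at 2 weeks were not called (limma adjusted p = 0.82, 0.42 and 1.0). The fall of 0.91 from 4 h to 18 h was not called either (limma unadjusted p = 0.061, adjusted p = 0.34).

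Myd88 was set against Ticam1, the adaptor mRNA of the MyD88 arm against that of the TRIF arm, which does not measure signalling. Ticam1 was under 1 RPKM in 8 of 10 naive retinas, 2 of 6 at 4 h and 5 of 5 at 18 h. The added 1 RPKM therefore weighs heavily in this ratio. The log2 ratio was 2.21 ± 1.20 (SD, n = 10) in naive retinas, 3.51 ± 0.82 at 4 h and 3.55 ± 0.78 at 18 h. These differences of 1.30 and 1.34 had exact permutation p = 0.032 and 0.037 and failed the correction over the 9 ratio tests (adjusted p = 0.066 for both). They passed it without naive replicate 7 (1.51 and 1.55, exact permutation, adjusted p = 0.022 and 0.023), and without 4 h replicate 2 (1.53, adjusted p = 0.045) or 18 h replicate 4 (1.64, adjusted p = 0.040). The 4 h shift was 2.04 in experiment 1 alone and 0.24 in experiment 2 alone (exact permutation, adjusted p = 0.086 and 0.80), and 0.76 over all retinas with 0.1 RPKM added (adjusted p = 0.42). The 18 h shift was 1.92 in experiment 1 alone (exact permutation, adjusted p = 0.071), and 0.62 over all retinas with 10 RPKM added (adjusted p = 0.16). At 2 weeks the ratio was 1.94 ± 1.97, a difference of -0.26 (exact permutation p = 0.73, adjusted 0.82). In each of the acute groups 1 retina lay above the naive range.

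Of the kinases, Irak3 was the single member called at both acute times. Its gene spans chr10:120141648-120202130 on the minus strand (GRCm38). In naive retinas it was listed at 0 in 2 and reached 4.15 RPKM in 1 (median 1.03, 1.22 ± 1.36 SD, n = 10). The 4 naive retinas with fewer than 9000 genes held 0, 0.183, 0.0263 and 0 RPKM of Irak3. At 4 h it held 9.59, 4.88 and 15.4 RPKM in experiment 1 and 4.54, 4.30 and 2.82 in experiment 2 (6.92 ± 4.74 SD). Thus 5 of 6 retinas lay above every naive retina, and the experiment 2 values, though lower, lay above the 1.58 to 2.39 RPKM of the naive retinas of experiment 2. The share of all genes that separate so within experiment 2 was not counted.

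At 18 h Irak3 held 10.1, 6.68, 16.3, 3.28 and 4.24 RPKM (8.12 ± 5.27 SD), 4 of 5 above every naive retina. At 2 weeks the values ran from 0 to 9.14 RPKM (median 2.37, 3.04 ± 3.11 SD), with 2 of 7 above. The acute levels therefore stayed apart from most naive values at both times.

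The log2 difference of Irak3 from naive was 1.88 at 4 h (SE 0.47, 3.69-fold, limma adjusted p = 0.0079) and 2.08 at 18 h (SE 0.50, 4.24-fold, limma adjusted p = 0.0099). It was 0.71 at 2 weeks (95% interval -0.21 to 1.63, limma adjusted p = 1.0). The 18 h and 4 h levels were not separated (0.20, -0.93 to 1.33, limma adjusted p = 0.92). From 18 h to 2 weeks Irak3 differed by -1.37, with unadjusted p = 0.015 and limma adjusted p = 0.20. The order was thus 18 h and 4 h above 2 weeks and naive, with 2 weeks not separated from either side.

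Within experiments the rise at 4 h was 2.80 in experiment 1 (limma adjusted p = 0.040) and 0.77 in experiment 2 (adjusted p = 0.063). The difference between them was -2.02 (unadjusted p = 0.033, limma adjusted p = 0.97), so it was not called. In that interaction fit 0 of 10 members were called, beside 0.0988% of all genes tested, and by limma 1 member had an unadjusted p under 0.05. At 18 h the rise was 2.62 in experiment 1 (limma adjusted p = 0.055) and 0.89 in experiment 2, which had 1 retina at that time (adjusted p = 0.31). Without the 7 retinas of few genes the rises were 1.37 at 4 h (limma adjusted p = 0.049) and 1.74 at 18 h (adjusted p = 0.028). The 18 h call was lost without 18 h replicate 3 (1.81, limma adjusted p = 0.058), which held 16.3 RPKM of Irak3 and the highest neutrophil marker sum, 17.1 RPKM. In the other 18 h retinas, Irak3 levels of 10.1, 6.68, 3.28 and 4.24 RPKM stood beside neutrophil sums of 1.08, 12.7, 0 and 0.885 RPKM. Nkg7 stood at 11.9 RPKM in replicate 3 and at 5.77, 35.5, 86.4 and 12.1 RPKM in those other retinas, and the lymphocyte sum at 51.8 and at 61.2, 97.4, 119 and 43.5 RPKM. The part of RNA from other cells was not tested. With 10 RPKM added in place of 1, which damps low genes, the differences were 0.56 at 4 h and 0.66 at 18 h (limma adjusted p = 0.017 and 0.012), under the 2-fold threshold. A fit to untransformed RPKM did not call the 4 h rise (adjusted p = 0.061).

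Irak4, the kinase that starts the cascade, was not called at any time. Naive retinas held 0.0193 to 5.85 RPKM (median 1.34, 1.55 ± 1.66 SD) and 4 h retinas 0.207 to 2.84 (median 1.28, 1.38 ± 1.07 SD). At 18 h it held 3.62, 2.32, 1.92, 0.281 and 2.55 RPKM (2.14 ± 1.22 SD), and at 2 weeks 0.181 to 4.06 (median 1.80, 1.85 ± 1.40 SD). The groups overlapped, and the differences were -0.01 (95% interval -0.81 to 0.79), 0.40 (-0.45 to 1.25) and 0.22 (-0.54 to 0.98), with limma adjusted p = 0.99, 0.68 and 1.0.

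Set against Irak4 within each retina, Irak3 shifted at both acute times. Irak3 was under 1 RPKM in 5 of 10 naive retinas and Irak4 in 3, so the added 1 RPKM weighs on this ratio as well. The log2 ratio was -0.22 ± 0.56 (SD, n = 10) in naive retinas, 1.68 ± 0.66 (n = 6) at 4 h and 1.47 ± 0.74 (n = 5) at 18 h. The difference at 4 h was 1.89 (exact permutation p = 0.0005, adjusted 0.002), with 5 of 6 retinas above all naive retinas. At 18 h it was 1.68 (exact permutation p = 0.00067, adjusted 0.002), the smallest p that design allows, with 5 of 5 above. At 2 weeks it was 0.50 (exact permutation p = 0.21, adjusted 0.32), with 2 of 7 above. Within experiment 1 the shift was 2.496 at 4 h and 2.17 at 18 h, and within experiment 2 it was 1.16 at 4 h (exact permutation, adjusted p = 0.071, 0.071 and 0.34). The smallest p that 3 against 4 retinas in experiment 2 allow is 0.057, so that test could not pass, and the smallest in experiment 1 is 0.024 at 4 h and 0.0095 at 18 h before adjustment. The 18 h group of experiment 2, with 1 retina, had no test. Over 5 alternative settings, among them 0.1 and 10 RPKM added, the 4 h shift ran from 0.575 to 3.03. The exact permutation test passed in 3 of them. Over the 4 settings with a test at 18 h, the shift ran from 0.578 to 2.57 and passed in 3.

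**Figure D3:**
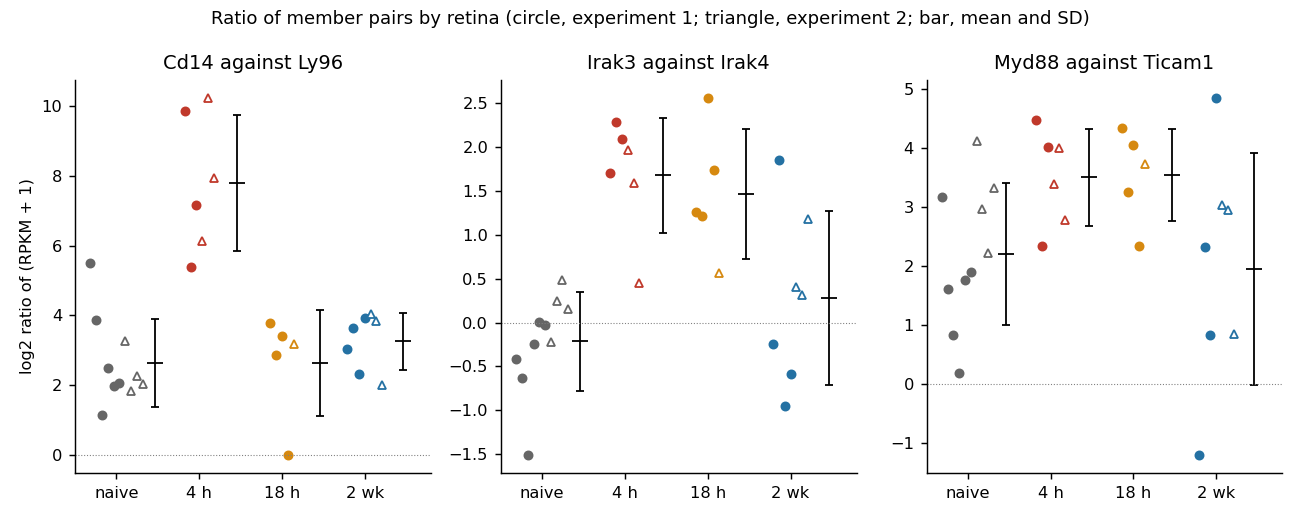
Log2 ratio of (RPKM + 1) for 3 member pairs in each of the 28 retinas. Circles are experiment 1, triangles experiment 2, bars mean and SD. Cd14 against Ly96 stands high at 4 h, Irak3 against Irak4 stands high at 4 h and 18 h, and Myd88 against Ticam1 overlaps the naive range in every group.

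Irak1, phosphorylated by IRAK4 and then released to TRAF6, was not called at any time. It ran from 3.28 to 20.9 RPKM in naive retinas (median 3.68, 6.31 ± 5.38 SD), where replicate 1 held the 20.9. At 4 h the values were 8.89, 0.974, 0.926, 3.33, 1.83 and 4.62 RPKM (3.43 ± 3.04 SD), with 3 of 6 below every naive retina. The difference of -0.76 was not called (95% interval -1.60 to 0.08, limma adjusted p = 0.30).

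At 18 h Irak1 held 4.95, 2.37, 4.95, 8.07 and 3.45 RPKM (4.76 ± 2.15 SD), and at 2 weeks it ran from 1.96 to 14.1 (median 5.54, 6.03 ± 4.11 SD). Both overlapped the naive range, with differences of -0.21 and -0.04 (limma adjusted p = 0.87 and 1.0).

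Across time points, Cd14 and Ly96 were the 2 members called between 4 h and 18 h, 1 lower and 1 higher, beside 2.51% of genes lower and 2.92% higher. Between 18 h and 2 weeks limma called 0 of 10 (1 at an unadjusted p under 0.05, Irak3), beside 1.1% of genes higher and 1.55% lower. Between 4 h and 2 weeks Cd14 was called lower, beside 2.91%, and none was called higher, beside 3.18%, with limma giving 1 member higher (Ly96) at an unadjusted p under 0.05. No member had every 18 h value above every naive value, beside 2.05% of all genes. In naive retinas the mean levels per transcript length ran from Cd14 (367 RPKM) through Ly96 (61.2), Cd180 (17.5), Myd88 (9.03), Irak1 (6.31), Ticam2 (3.91), Tirap (1.91), Irak4 (1.55) and Irak3 (1.22) to Ticam1 (0.483). The SD of each of the last 7 exceeded or came near its mean, so that neighbours among them were not set apart by this order.

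Other genes of the pathway, 51 in 5 lists of which 46 were tested, were counted beside the members. The lists were chosen with earlier results of these data known, so their counts are a description and not a test. At 4 h 22 of the 46 were called higher and 3 lower, beside 3.68% and 4.39% of all genes tested. At 18 h 8 were called higher and 0 lower (by limma), beside 2.84% and 1.85%, and at 2 weeks 0 in either direction, beside 0.0076% higher and 0 lower. The 3 called lower at 4 h all belonged to the list of TLR4, its partners and TLR chaperones, of which 5 of 6 were tested (Lbp was not).

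TLR4 itself, the signalling receptor that CD14 and MD-2 serve, had a mean of 7.60 ± 3.62 RPKM (SD, n = 10) in the naive group. The mean was 0.826 ± 0.670 RPKM after 4 h, 7.59 ± 4.81 after 18 h and 8.36 ± 3.26 after 2 weeks. Tlr4 differed from naive at 4 h by -2.15 on the log2 scale (SE 0.43, limma adjusted p = 0.00097), and rose by 2.02 from 4 h to 18 h (limma adjusted p = 0.014), a call lost without 18 h replicate 1 or 5 (adjusted p = 0.050 and 0.055). The 4 h call of Tlr4 was lost in experiment 1 alone (-2.19, limma adjusted p = 0.091) and, under 2-fold, with 10 RPKM added (-0.67). The rise to 18 h was lost under the same settings (2.18, limma adjusted p = 0.19, and 0.65). Ly86, which encodes the MD-1 partner of CD180, went from 421 ± 93.1 RPKM in naive retinas to 185 ± 96.0 at 4 h, a change of -1.29 (SE 0.26, limma adjusted p = 0.00093), which was not called in experiment 2 alone (-0.82, adjusted p = 0.076). Hsp90b1, the chaperone that folds TLRs, changed by -1.05 (SE 0.265, limma adjusted p = 0.0088), which was under 2-fold in the retinas with at least 9000 genes (-0.73) and without naive replicate 3 or 4 or 4 h replicate 1 or 4 (-0.99 to -0.91). It was also not called within experiment 1 or 2 alone (-1.19 and -0.80), under quantile normalisation (-0.96) or with 10 RPKM added (-0.997).

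In the list of MyD88 arm kinases and ligases 1 of 13 was called at 4 h, the ligase Peli1 (1.58, SE 0.35, limma adjusted p = 0.0024), which was not called in experiment 1 alone (1.68, adjusted p = 0.15). At 18 h limma called 0 of 13 (3 at an unadjusted p under 0.05: Irak2 lower, Peli1 higher, and Tab3, named after its values were seen, lower). IRAK2, the remaining kinase of the IRAK family, had 7.63 ± 6.50 RPKM (SD) in the naive group, and 15.7 ± 10.5, 1.48 ± 1.02 and 7.47 ± 3.24 RPKM in the EIU groups in order of time. Irak2 differed from naive by 1.09 at 4 h (SE 0.48, limma adjusted p = 0.18) and -1.55 at 18 h (SE 0.51, adjusted p = 0.077), and fell by 2.64 between them (SE 0.56, limma adjusted p = 0.0031). The 18 h difference passed without naive replicate 6 (-1.85, limma adjusted p = 0.010), with equal summed RPKM (-1.75, 0.049) and in the retinas with at least 9000 genes (-1.51, 0.025), and the 4 h difference passed in experiment 2 alone (1.40, 0.026). The fall between them was not called in experiment 1 alone (-2.45, limma adjusted p = 0.24). Irak3 was not called between those times.

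In the TRIF arm list, 3 of 6 were called higher at 4 h. Tank, a scaffold of the TBK1 complex, rose by 2.10 (SE 0.435, limma adjusted p = 0.0013), the kinase gene Ikbke by 1.52 (SE 0.28, adjusted p = 0.00025) and the ligase gene Traf3 by 1.10 (SE 0.34, adjusted p = 0.034). Traf3 lost its call with no filter on low values (limma adjusted p = 0.072) and without any 1 of naive replicates 1 to 4 or 4 h replicates 1, 4 and 5 (adjusted p from 0.051 to 0.093). It was also lost with 0.1 or 10 RPKM added, with equal summed RPKM, with only the groups compared and within either experiment alone. At 18 h Ikbke alone of the list was called (1.20, SE 0.29, limma adjusted p = 0.011), and it was lost without 18 h replicate 1 or 3 (adjusted p = 0.055 and 0.068), with the replicate block (0.053), within experiment 1 or 2 alone (0.078 and 0.31), with 10 RPKM added (0.078) and with a fit to untransformed RPKM (0.16). The 4 h difference of Ikbke was under 2-fold with 10 RPKM added (0.29) and in experiment 2 alone (0.85), and that of Tank was not called in experiment 1 alone (1.85, limma adjusted p = 0.25).

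In the list of inhibitors 7 of 10 tested were called higher at 4 h and by limma 0 at 18 h (2 higher at an unadjusted p under 0.05). The leading ones were the NF-kappa B inhibitors Nfkbia (4.82, SE 0.49, limma adjusted p = 1.3e-08) and Nfkbib (4.21, SE 0.63, adjusted p = 1.5e-05), the deubiquitinase A20 gene Tnfaip3 (4.67, SE 0.51, adjusted p = 6.6e-08) and its partner Tnip1 (3.37, SE 0.46, adjusted p = 3.2e-06). Irak3, also held to be an inhibitor of this pathway, was called at 18 h as well, and whether it differs from that list was not tested.

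Output genes, the cytokines, chemokines and interferon-response genes downstream, were called higher for 11 of 12 at 4 h and 7 of 12 at 18 h. At 4 h the largest differences were those of Tnf (9.26, SE 0.58), Il1b (8.91, SE 0.65), Ccl4 (8.73, SE 0.71) and Ccl3 (7.21, SE 0.45), with limma adjusted p of at most 1.4e-10. At 18 h they were those of Ccl5 (7.64, SE 0.51), Ifit1 (4.21, SE 0.76), Tnf (3.62, SE 0.61) and Ccl4 (3.41, SE 0.75), with limma adjusted p of at most 0.0048. In experiment 2 alone, with 1 retina at 18 h, the 18 h differences of Ifit1, Tnf and Ccl4 were not called, nor were they with a fit to untransformed RPKM.

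**Figure D4:**
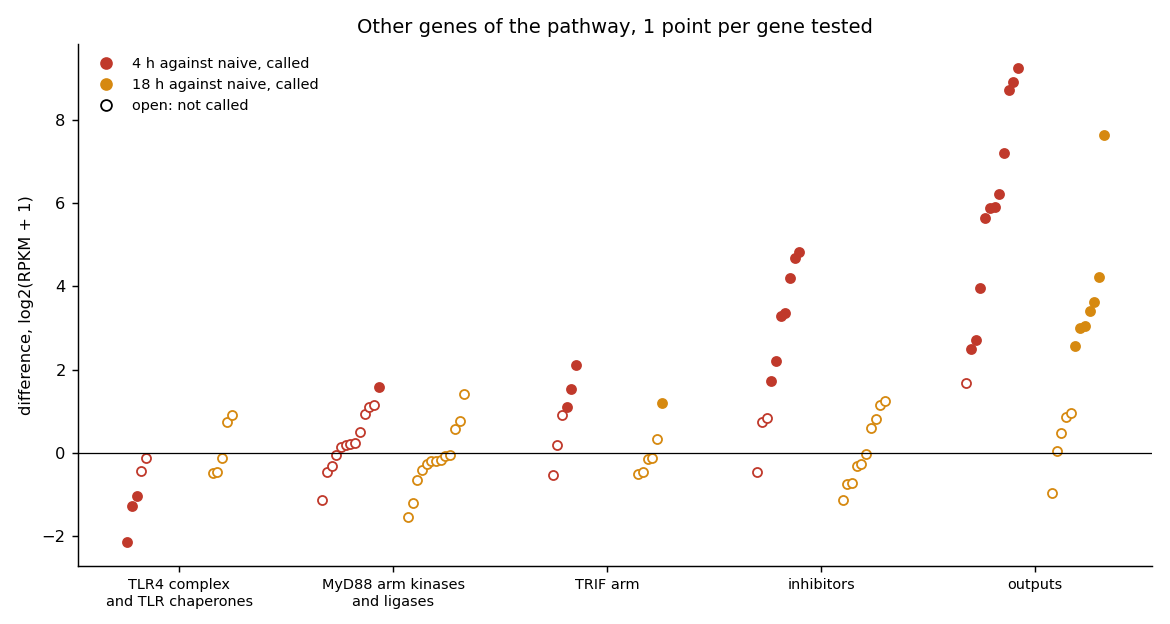
Difference from naive at 4 h and 18 h, on the log2(RPKM + 1) scale, of the 46 pathway genes tested, 1 point per gene, in 5 lists. Filled points were called: 25 at 4 h, of which the 3 below 0 are all in the TLR4 complex list, and 8 at 18 h.

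The genes whose levels tracked the called members most closely over the 28 retinas were listed by Pearson r of log2(RPKM + 1), as a description. For Cd14 they were the immediate early phosphatase genes Dusp1 (r = 0.951) and Dusp2 (0.940) and the chloride channel gene Clic4 (0.936). For Irak3 they were Nop56, of ribosomal RNA processing (0.867), the interferon-induced GTPase gene Gbp2 (0.854) and the chemokine gene Cxcl16 (0.851). For Ly96 they were Snapc5 (0.813), Ost4 (0.801) and Dynlt1f (0.797). The 28 points share 4 groups, so that any gene that moves with time scores high.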

How the data were processed

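Per the labels and the study's methods, mRNA from sorted microglia of 28 single retinas was amplified (SMART-Seq v4) and sequenced. The authors trimmed the reads, aligned them with STAR 2.5.3a to mm10 after bcl2fastq 2.20, quantified Ensembl transcripts in Partek Flow and deposited RPKM values per gene, with the number of alignments per sample. RPKM divides by length and depth, so the read counts behind low values are unknown. The authors' other tables hold only their own 4 h and 18 h comparisons (p-values, mean ratios, fold changes, F statistics) and were not used.

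From the RPKM, limma 3.58.1 (R 4.3.3) was fitted to log2(RPKM + 1) of the 4 groups in 1 model of 28 samples, with a mean-variance trend, over the 13164 genes at 1 RPKM or more in at least 5 samples. Fold changes on this scale understate those of low genes. The experiment interaction used 8 cells. Ratios were compared with exact two-sided permutation tests (SciPy 1.17.1, Python 3.11.15, pandas 2.3.3). The fit was tested on simulated data. No pair of samples shared more than 2 identical values above 0. Same-numbered retinas deviated together in 15 of 34 pairs at r over 0.1 (from -0.329 to 0.698), so numbers were not taken to pair them. Named pathway genes were those called at 4 h or 18 h against naive, up to the 4 of a list with the largest log2 change in that comparison, plus Tlr4, Ly86 and Irak2. For each member called at an acute time, the 3 genes with the highest Pearson r were given. The members and lists were chosen with earlier results of these data known.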

Additional observations from a re-analysis of the deposited data

Results flagged for a closer look

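A single retina stood apart from its group, by Dixon's test at the 95% level, in 4 of 40 member and group values tested, where chance gives about 1 in 20. Cd180 was 1.82 RPKM in naive replicate 4, with the next naive retina at 7.84 and the highest at 29.2. It was 1.86 RPKM in 2-week replicate 1, with the next at 12.9. Tirap was 9.50 RPKM in naive replicate 3, with the next at 2.31. Irak1 was 20.9 RPKM in naive replicate 1, with the next at 7.74.

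The change from naive differed between the acute times for 2 members. The change of Cd14 at 18 h was lower than that at 4 h by a log2 difference of -3.58 (limma adjusted p = 8.8e-06), with 5 of 5 retinas at 18 h below all at 4 h. That of Ly96 was higher by 1.57 (limma adjusted p = 0.034), with 1 of 5 above all at 4 h. Both time points were set against the same naive retinas.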

How the results depend on the processing

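The rise of Cd14 at 4 h was called under every alternative run, including each of the 28 fits without 1 retina, and that of Irak3 at 4 h in each of those 28 fits. The depth in reads is unknown, which limits members near 1 RPKM. The retinas with at least 9000 genes were chosen after seeing the data, and the cause of each change below was not tested.

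The settings named here are those that moved a count of calls most, and smaller moves are left out. Ly96, for instance, lost its 4 h call with no filter, the replicate block, only the groups compared or experiment 1 alone. Members called at 4 h numbered 3, against 5 with quantile normalisation and 1 with ANOVA of untransformed RPKM, and 2 to 5 without 1 retina. At 18 h there was 1, against 0 with 10 RPKM added and within experiment 1 or 2 alone, and 0 to 1 without 1 retina. Between 18 h and 4 h there were 2, against 1 with no filter, the replicate block, experiment 1 alone, quantile normalisation or ANOVA, and 1 to 2 without 1 retina. Between 2 weeks and 18 h there were 0, against 1 with quantile normalisation. Between 2 weeks and 4 h there was 1, against 2 with experiment 2 alone, equal summed RPKM or quantile normalisation, 3 in the retinas with at least 9000 genes, and 1 to 2 without 1 retina. Pathway genes called numbered 25 at 4 h, against 15 in experiment 1, and 8 at 18 h, against 2 in experiment 2 and 2 with ANOVA.

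The replicate numbers were not taken to pair the samples, though the labels do not settle this. With the replicate block the Ly96 difference at 4 h was -1.05 (limma adjusted p = 0.14). The block also turned small differences of Irak4 at 4 h (0.012), Ticam1 at 18 h (-0.047), Cd180 at 2 weeks (0.10) and Tlr4 at 18 h (0.23).

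Other differences that changed sign, none of them called, were these. In experiment 1 alone Ticam2 was -0.086 and Irak4 0.30 at 4 h, and between 18 h and 4 h Ticam2 was 0.56 and Irak3 -0.18. In experiment 2 alone Tirap was -0.47 at 4 h, Ly96 -0.56, Ticam1 -0.30 and Tlr4 0.31 at 18 h, and Cd180 0.16 and Irak1 0.38 at 2 weeks. With experiment as a covariate Ticam2 was 0.19 between 18 h and 4 h and Tlr4 0.056 at 18 h. With equal summed RPKM Cd14 was -0.088, Ly96 -0.085 and Ticam1 -0.075 at 18 h, and with quantile normalisation Cd14 was -0.06. With 10 RPKM added Tirap was -0.007 at 4 h and Ticam1 -0.01 at 18 h, and with 0.1 added Irak4 was 0.18 at 4 h. With ANOVA Tirap was -0.22 at 4 h, and Ticam1 -0.30 and Ticam2 -0.068 at 18 h. In the retinas with at least 9000 genes Ticam1 was -0.18 at 18 h, and Ly96 0.06, Myd88 -0.21, Ticam2 -0.11 and Irak4 -0.011 at 2 weeks.

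Of the ratios, Irak3 against Irak4 shifted by 2.496 and 1.16 at 4 h in experiments 1 and 2 and by 2.17 at 18 h in experiment 1, and Cd14 against Ly96 by 4.64 and 5.76 at 4 h, none with an adjusted p of at most 0.05. In experiment 2 the smallest p that 3 against 4 retinas allow is 0.057, so its tests could not pass and say nothing of stability. Cd14 against Ly96 at 18 h was -0.005 with 0.1 RPKM added and -0.33 in experiment 1. Myd88 against Ticam1 was 1.12 at 4 h with 10 RPKM added, now passing (exact permutation, adjusted p = 0.031), and 0.13 with that and 0.12 in experiment 1 at 2 weeks.

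Without 1 retina, the ranges of results that changed were as follows. At 4 h Ly96 ran from -1.71 to -1.16, Myd88 from 1.89 to 2.79, Ticam1 from 0.78 to 1.28, Irak4 from -0.17 to 0.17, Hsp90b1 from -1.17 to -0.91 and Traf3 from 1.00 to 1.22. At 18 h Cd14 ran from -0.009 to 0.75, Ticam1 from -0.11 to 0.17, Ticam2 from -0.045 to 0.71, Irak3 from 1.81 to 2.31, Ikbke from 1.00 to 1.46, Irak2 from -1.85 to -1.27 and Tlr4 from -0.37 to 0.37. At 2 weeks Cd180 ran from -0.36 to 0.32, Myd88 from -0.034 to 0.76, Tirap from -0.36 to 0.01 and Irak1 from -0.25 to 0.16. Between 18 h and 4 h Ly96 ran from 1.40 to 1.95, Ticam2 from -0.53 to 0.38, Irak3 from -0.075 to 0.45 and Tlr4 from 1.78 to 2.52. Between 2 weeks and 4 h Ly96 ran from 0.92 to 1.47. Myd88 against Ticam1 ran from 1.07 to 1.53 at 4 h, 1.11 to 1.64 at 18 h and -0.75 to 0.26 at 2 weeks, and Cd14 against Ly96 from -0.28 to 0.67 at 18 h.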

Other observations

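Among the 10 naive retinas, replicate 1 held the highest value for 8 of the 10 members (Cd14, Cd180, Myd88, Ticam1, Ticam2, Irak1, Irak3 and Irak4) and the lowest for Ly96. It also had the most genes at 1 RPKM of all retinas (11825) and the lowest summed RPKM (298434). At 18 h, replicate 4 held the lowest value for 7 members and the highest for Ly96 and Irak1, with 6969 genes at 1 RPKM. At 2 weeks, replicate 1 held the lowest value for 6 members and the highest for Irak1, with 6644 genes. The summed level of erythrocyte markers was 735 RPKM in 4 h replicate 5, the retina with the highest Cd14, and at most 67.9 in every other retina.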
